A study of Mus musculus with 4 samples.

Results

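Foxo1 peaks were examined at 6 genes that encode regulators of the naive T cell state: Tcf7, Lef1, Satb1, Bach2, Ets1 and Bcl6. A peak was taken as a member when its centre fell in a fixed window around one of these genes in the mouse build mm9. The windows run from 52010001 to 52150000 on chromosome 11 for Tcf7, from 130750001 to 130980000 on chromosome 3 for Lef1 and from 51800001 to 52050000 on chromosome 17 for Satb1. Those for Bach2, Ets1 and Bcl6 run from 32260001 to 32740000 on chromosome 4, from 32440001 to 32630000 on chromosome 9 and from 23900001 to 24050000 on chromosome 16. They span 1.44 Mb in all. They held 134 of the 77652 deposited intervals: 46 of 16473 antibody peaks, 65 of 57748 streptavidin peaks and 23 of the 3431 intervals of a combined list.

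The study used chromatin immunoprecipitation with sequencing in mouse regulatory T cells, named nTreg in the labels, with 1 library per group and 4 libraries in all. The antibody library was precipitated with a Foxo1 antibody from wild-type B6 mice. The streptavidin library came from Foxo1tagBirA mice, whose endogenous Foxo1 carries biotin, and was precipitated with streptavidin. Each had an input library. The combined list was deposited with the antibody input but is named for both methods, and it gives positions without scores. The number of animals, their age and the strain background of the tagged mice are not given in the sources used here. Genotype and capture method changed together, so their effects cannot be told apart. The lists hold no expression values, and the cell type was not checked against marker genes. Read depth is unknown.

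Foxo1 is a forkhead transcription factor that works in the nucleus of resting T cells, and Akt, a kinase downstream of PI3K, sends it to the cytoplasm after activation. In T cells it is known for maintaining genes of quiescence, survival and lymph node homing. Tcf7 and Lef1 encode related HMG-box factors that shape thymocyte development and mark naive and memory-like T cells. Satb1 encodes a chromatin organiser needed for T cell development. Bach2 encodes a repressor that restrains effector differentiation and favours regulatory T cells. Ets1 encodes an ETS-family factor expressed at high levels in resting lymphocytes, and Bcl6 a zinc finger repressor best known from follicular helper T cells and germinal centre B cells.

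The forkhead factors recognise a short AT-rich motif, and the letters GTAAACA were therefore searched on both strands of the RefSeq promoters (GRCm38.p6) of these genes, together with ACAGGAAG for ETS factors and TGTGGT for Runx factors. The promoter table matched 14 promoters of 5 of the 6 genes, all but Ets1. These were 5 of Satb1, 4 of Lef1, 2 of Tcf7, 2 of Bcl6 and 1 of Bach2, and promoters of 1 gene need not be independent. GTAAACA was found in 1 of the 14, a Tcf7 promoter, and in 3.65% of all 32851 promoters. ACAGGAAG was found in 1 of the 14, a Lef1 promoter, and in 3.58% of all. TGTGGT was found in 0 of the 14 and in 16.8% of all. Both matches are shown with their flanks in the direction of transcription, with the matching letters in capitals. The Tcf7 stretch is chr11:52282576-52282605 on the minus strand and the Lef1 stretch chr3:131156268-131156297 on the plus strand, both in GRCm38.p6.
Tcf7 forkhead match: cctttataggaGTAAACAgacccccgccat
Lef1 ETS match: tttgattgcacACAGGAAGttataacagat
These coordinates belong to another build than the peaks, so no peak was placed relative to them. A match is a description of the letters only.

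No mm9 gene annotation was used here, so whether a peak lies in a promoter, exon or intron was not determined. A peak in a window may also belong to a neighbouring gene. In gene order (GRCm38.p6) Tcf7 lies between Skp1 and Vdac1, Lef1 between Rpl34 and Hadh, Satb1 between Tbc1d5 and Kcnh8, Bach2 between Map3k7 and Gja10, Ets1 between Fli1 and Kirrel3, and Bcl6 between Rtp2 and Lpp.

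The first question was how many of the peaks at these genes were called by both routes of capture. Overlap meant at least 1 shared base. It was found for 25 of the 46 antibody peaks (54.3%, exact Clopper-Pearson 95% interval 39 to 69.1), against 21.9% of the whole antibody list. It was found for 28 of the 65 streptavidin peaks (43.1%, 30.8 to 56), against 6.2% of the whole streptavidin list. The intervals cover counting error over peaks only and take peaks as independent, which peaks of 1 gene are not, so they are too narrow. No group has a second library, so there is no replicate check and no test was made.

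**Figure D1:**
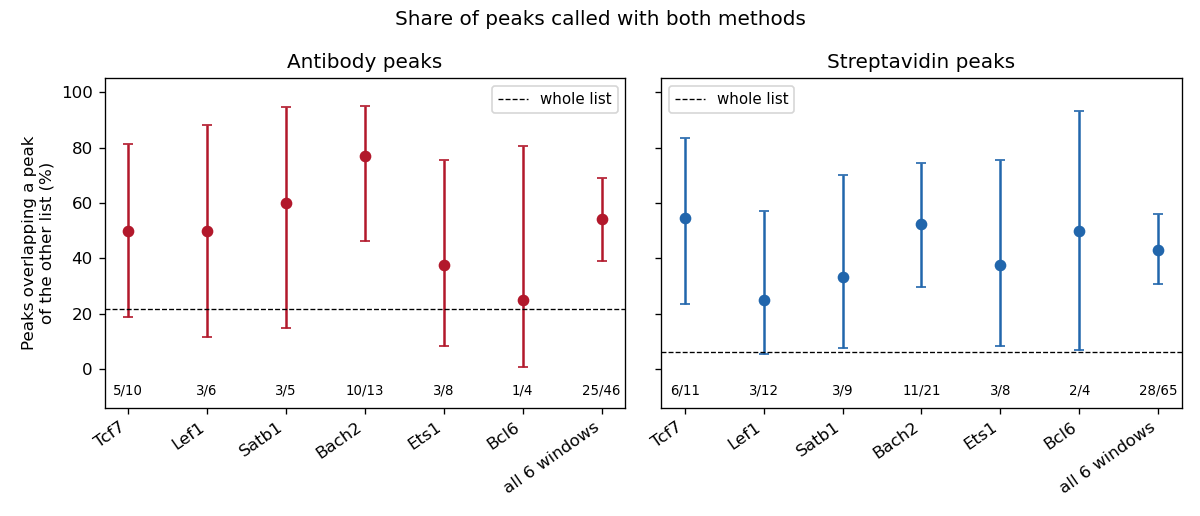
Percentage of antibody peaks (left) and streptavidin peaks (right) that overlap a peak of the other list, for each window and for all 6 windows; bars are exact 95% intervals, the numbers give overlapping and all peaks, and the dashed line is the whole list (21.9% and 6.2%). The highest antibody share is that of Bach2, 10 of 13 peaks, and the lowest that of Bcl6, 1 of 4.

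At Bach2, 10 of 13 antibody peaks overlapped a streptavidin peak (76.9%, exact interval 46.2 to 95). At Satb1 the count was 3 of 5, at Tcf7 5 of 10, at Lef1 3 of 6, at Ets1 3 of 8 and at Bcl6 1 of 4. The exact intervals of the 6 genes overlapped each other, and a difference between genes was not tested. Without Bach2 the share over the other genes was 45.5%. Among streptavidin peaks the count was 11 of 21 at Bach2, 6 of 11 at Tcf7, 3 of 9 at Satb1, 3 of 12 at Lef1, 3 of 8 at Ets1 and 2 of 4 at Bcl6. Some of these share a place: both Bcl6 peaks overlapped the same antibody peak, as did a pair at Tcf7 and a pair at Bach2.

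Each peak of the 2 lists has a deposited score that no header defines. It was taken to be a value that the peak caller gave, and was used only within a list, mainly as the percentile of a peak among all peaks of its list. The antibody peaks at these genes had a median score of 191 and a median percentile of 60.4, with a range from 1.06 to 99.4. By gene, the median antibody percentile was 89.8 at Bach2 and ranged from 35.4 at Bcl6 to 59.9 at Tcf7 among the others. Without Bach2 the pooled median was 50.4, near the middle of the list. The median score of the whole antibody list was 167. The streptavidin peaks had a median score of 84.6 and a median percentile of 66.2, against a median score of 74.7 over the whole list. Of the antibody peaks 12 of 46 were in the top decile of their list, and 6 of these 12 lay at Bach2. Of the streptavidin peaks 22 of 65 were in the top decile, with 9 at Bach2 and 4 at Satb1.

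Overlap and score went together at these genes. Of the 12 antibody peaks in the top decile 11 overlapped a streptavidin peak, against 63.6% of the top decile of the whole list. The exception was a Lef1 peak with a score of 533. Below the top decile 14 of 34 overlapped (41.2%), against 17.2% in the whole list. In the streptavidin list 18 of 22 top-decile peaks overlapped an antibody peak (81.8%), against 24.4% of that decile in the whole list, and 10 of 43 below it (23.3%), against 4.16%. The 25 overlapping antibody peaks had a median score of 408 and a median width of 352 bases, and the 21 others a median score of 149 and a median width of 244 bases. The same direction holds over the whole antibody list, with median scores of 252 and 158 and median widths of 295 and 223 bases. Of the 25 overlapping antibody peaks at these genes 10 lay at Bach2, where all 13 antibody peaks had a median score of 411. The contrast was not recomputed without Bach2.

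**Figure D2:**
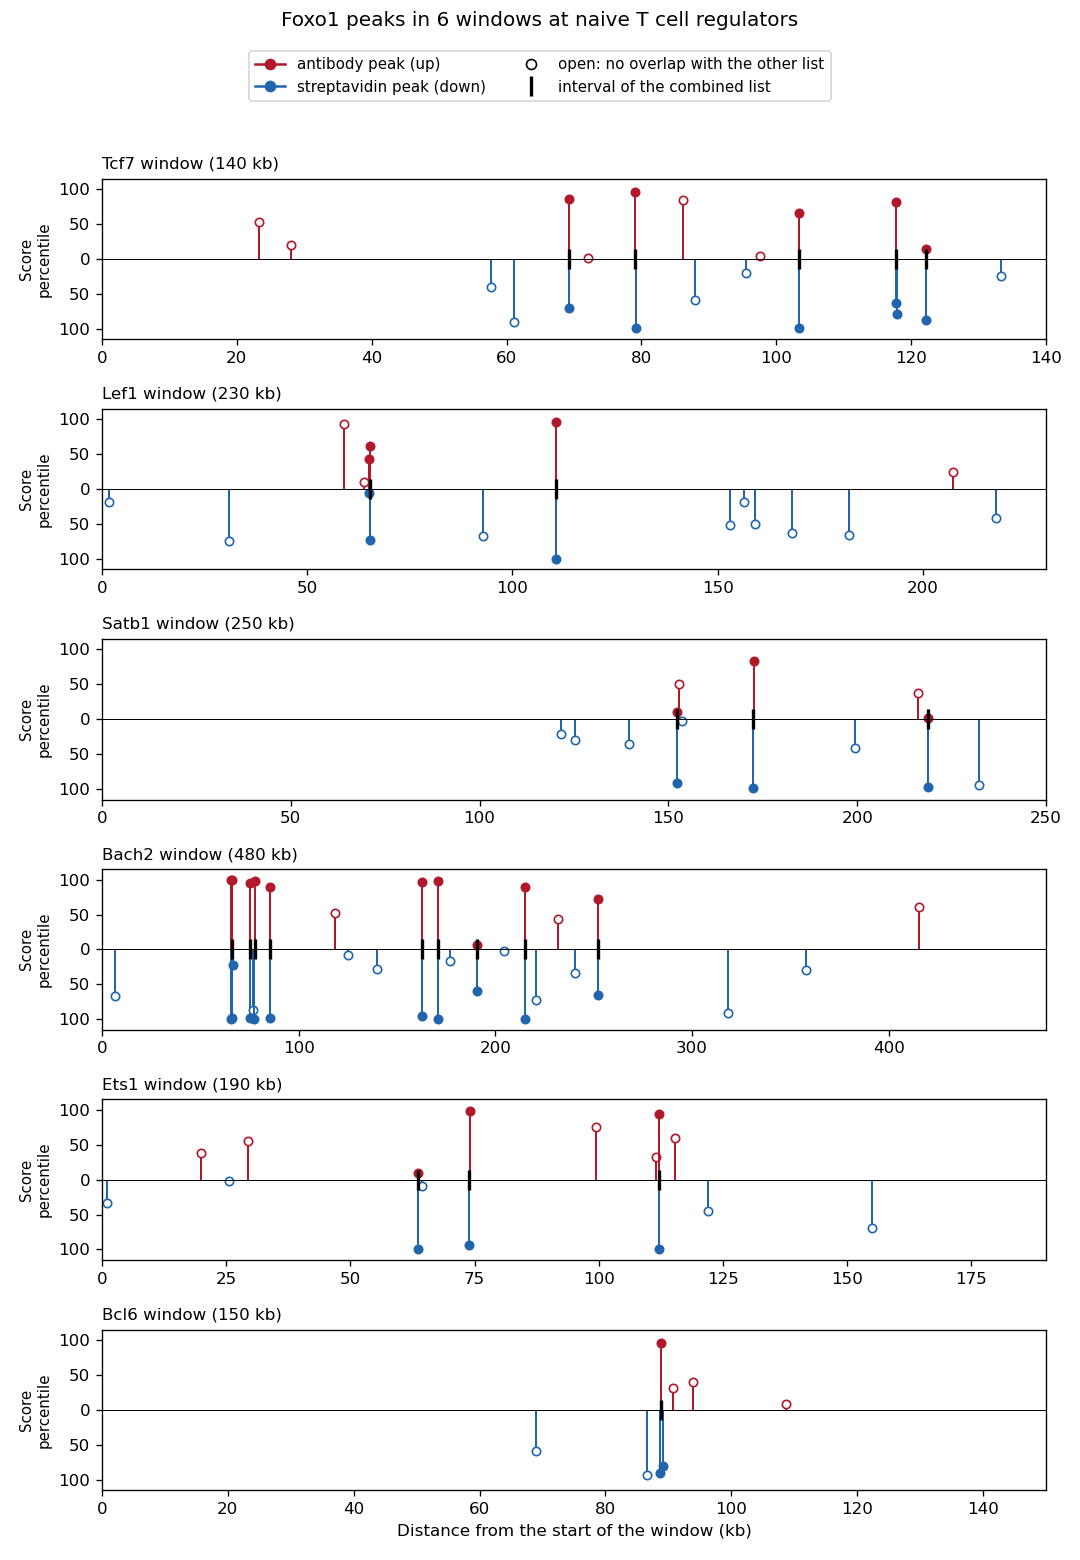
Position of each peak, in kb from the start of its window, against the percentile of its score in its own list, with antibody peaks upward and streptavidin peaks downward; filled circles overlap a peak of the other list, open circles do not, and black ticks are intervals of the combined list. Bach2 holds 9 ticks, Tcf7 5, Satb1 and Ets1 3 each, Lef1 2 and Bcl6 1.

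Bach2, whose product represses effector programmes, had the highest counts in all lists, in the longest window (480 kb), with 13 antibody peaks, 21 streptavidin peaks and 9 intervals of the combined list. Its strongest antibody peak lay at chromosome 4, 32325417 to 32325903, with a score of 2023, rank 106 of 16473. The streptavidin peak at the same place, 32325516 to 32325845, had a score of 1148, rank 13 of 57748. Their centres were 20.5 bases apart. This was the highest score of each list at any of the 6 genes. A second antibody peak followed directly, at 32326033 to 32326542, with a score of 1486, and overlapped 2 streptavidin peaks with scores of 167 and 64.2. A single interval of the combined list, of 1562 bases at 32325239 to 32326800, covered these 5 peaks. No source used here says how that list was made, and neither end of this interval is an end of a peak inside it.

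Further along the Bach2 window, an antibody peak at 32335228 to 32335432 scored 677 and its streptavidin partner 173. The peak at 32337207 to 32338195 was the widest antibody peak at these genes, at 989 bases, and scored 1131. Its partner scored 255. The antibody peak at 32345227 to 32345598 scored 411 and its partner 214. These peaks and the leading pair all lay within the first 100 kb of the window, as the map of peak positions shows. After a stretch that held an antibody peak without overlap (32378316 to 32378570, score 172), the next shared places were 32422673 to 32423056, with scores of 770 and 138 and centres 7.5 bases apart, and 32430632 to 32431113, with 1090 and 554. The latter streptavidin peak had rank 73 in its list. These 2 places were thus high in both lists.

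The remaining shared Bach2 antibody peaks had lower scores than the shared antibody peaks above. The antibody peak at 32474807 to 32475158 scored 408 and its partner 297, the percentiles 89.7 and 99.5 of their lists. The antibody peak at 32512127 to 32512282 scored 234 and its partner 83.5. The antibody peak at 32450765 to 32450982, with a score of 98.8, was at the percentile 6.54 of its list, and its partner scored 79.1. Antibody peaks without overlap lay at 32491982 to 32492251 (score 155) and 32675287 to 32675571 (score 194). The 10 streptavidin peaks without overlap scored from 53.1 to 120. The highest of them, at 32578144 to 32578501, had its nearest antibody centre 66118 bases away.

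Tcf7 had the highest density of the 6 windows, with 10 antibody and 11 streptavidin peaks in 140 kb, the shortest window. Its strongest peak in both lists was at chromosome 11, 52088936 to 52089285, with an antibody score of 755 (percentile 96.1) and a streptavidin score of 246 (percentile 99.2). Their centres were 36.5 bases apart, and the streptavidin peak covered the whole antibody peak. The second streptavidin peak, with a score of 219, overlapped an antibody peak at 52113263 to 52113512 with a score of 210. An antibody peak at 52079020 to 52079380 scored 345 and its partner 87.4.

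At the far end of the Tcf7 window an antibody peak at 52127508 to 52128005, with a score of 294, overlapped 2 streptavidin peaks with scores of 81.8 and 95.2. The antibody peak at 52132041 to 52132454 scored 110 and its partner 111, which are the percentiles 14.2 and 87.8 of their lists. The strongest antibody peak without overlap, at 52096032 to 52096294, scored 321, and the nearest streptavidin centre was 1785.5 bases away. The other 4 antibody peaks without overlap scored from 87.6 to 174. Of the 5 streptavidin peaks without overlap, 1 scored 118, at 52071045 to 52071299, and the rest from 63.6 to 79.

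Lef1, the relative of Tcf7, had 6 antibody and 12 streptavidin peaks in 230 kb. Its strongest peaks coincided at chromosome 3, 130860433 to 130860719, where the antibody peak scored 799 and its partner 350. The streptavidin peak had rank 188 of its list and the centres were 11.5 bases apart. A second shared place held 2 adjacent antibody peaks, at 130814857 to 130815257 and 130815271 to 130815560, with scores of 154 and 193 and streptavidin partners of 54.6 and 89. A single interval of the combined list, 786 bases wide, covered this place.

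The antibody peak with a score of 533, at 130808962 to 130809198, was the strongest without a streptavidin overlap at any of the 6 genes, and the nearest streptavidin centre was 6040.5 bases away. The other 2 unshared antibody peaks at Lef1 scored 104 and 125. The 9 streptavidin peaks without overlap scored from 61.6 to 92.1. Between 130902959 and 130932028 lay 5 of these, with scores of 62 to 83.9, and no antibody peak.

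Satb1 had 5 antibody peaks and 9 streptavidin peaks in 250 kb, with none near the start of the window: the first antibody centre was 152 kb and the first streptavidin centre 122 kb from its start. No antibody peak at Satb1 was in the top decile, whereas 4 streptavidin peaks were. The strongest of each list, at chromosome 17, 51972448 to 51972758 (score 318) and 51972132 to 51972455 (score 172), overlapped by 8 bases with centres 309.5 bases apart, the largest distance of any overlapping pair at these genes. This pair was not counted when 50% of the shorter peak had to be covered or when centres had to lie within 200 bases.

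The other 2 shared Satb1 places had low antibody scores. The antibody peak at 51952063 to 51952256 scored 103 and its partner 119. The antibody peak at 52018577 to 52018786, with a score of 88, stood at the percentile 1.21 of its list, while its partner scored 155, the percentile 97.1. The antibody peaks at 51952695 to 51953087 (score 168) and 52015910 to 52016075 (score 146) had no overlap. The highest unshared streptavidin peak, at 52032161 to 52032494, scored 132, and the nearest antibody centre was 13646 bases away. This was also the highest unshared streptavidin score at any of the 6 genes.

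Ets1 had 8 peaks in each list in 190 kb, and 3 of each overlapped. Its strongest antibody peak, at chromosome 9, 32513785 to 32514196, scored 1284, rank 249 of its list, and its partner scored 131.2. The antibody peak at 32552007 to 32552282 scored 617 and its partner 221. At 32503625 to 32503768 the antibody peak scored 102, the lowest of its list in the window. Its partner scored 224, the highest of its own list in the window. The 5 antibody peaks without overlap scored from 138 to 247, the highest of them at 32539332 to 32539665 with the nearest streptavidin centre 12565.5 bases away. The 5 streptavidin peaks without overlap scored from 53.1 to 87.

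Bcl6 had the fewest peaks, 4 in each list in 150 kb, and 1 place called by both methods. There the antibody peak at chromosome 16, 23988534 to 23989093, scored 763 (percentile 96.1) and overlapped 2 streptavidin peaks, with scores of 119 and 98.1. The streptavidin peak with the highest score of the window, 130, was a narrow peak of 137 bases at 23986519 to 23986655, and the nearest antibody centre was 2226.5 bases away. The 3 antibody peaks without overlap scored 101 to 149 and all lay beyond the shared peak. The remaining streptavidin peak, at 23968788 to 23969045, scored 78.9.

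The 23 intervals of the combined list held all 25 overlapping antibody peaks and all 28 overlapping streptavidin peaks, and none of the other members. Over the whole lists 22.4% of antibody and 6.28% of streptavidin peaks met an interval of the combined list. These shares are close to the 21.9% and 6.2% that overlapped a peak of the other list. The containment is thus not shown to be particular to these genes. The intervals were 244 to 1562 bases wide (median 527). In 19 of the 23 there was 1 peak of each list. Both ends coincided with ends of deposited peaks in 5 intervals, and these 5 equalled the union of their peaks; the others had at least 1 end that no peak inside them has.

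Taking the top antibody and top streptavidin peak of each interval, the median distance between centres was 52 bases (7.5 to 309.5), and 11 of the 23 distances were at most 50 bases. The 22 pairs in which neither peak overlapped a further one had a median distance of 49.75 bases. The 3246 such pairs of the whole lists had a median of 53 bases, so the distances at these genes were close to those elsewhere.

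Across the 23 intervals the antibody and streptavidin scores had a Spearman's rho of 0.56, given as a description over places that share 2 libraries. All 23 had a streptavidin peak in the upper 50% of its list, against 73.3% of all 3431 intervals, and 18 (78.3%) had an antibody peak in the upper 50% of its own, against 72%. The streptavidin peak was in the top decile in 17 (73.9%), against 40.8% of all intervals, and the antibody peak in 10 (43.5%), against 30.4%. Both were in the top decile in 10 (43.5%), against 19.2%. These shares are descriptions, and 9 of the 23 intervals lie at Bach2. In the 5 intervals with a low antibody percentile, at Satb1 (2), Tcf7, Bach2 and Ets1, the antibody percentile ranged from 1.21 to 14.2 and the streptavidin percentile from 59.2 to 99.1.

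**Figure D3:**
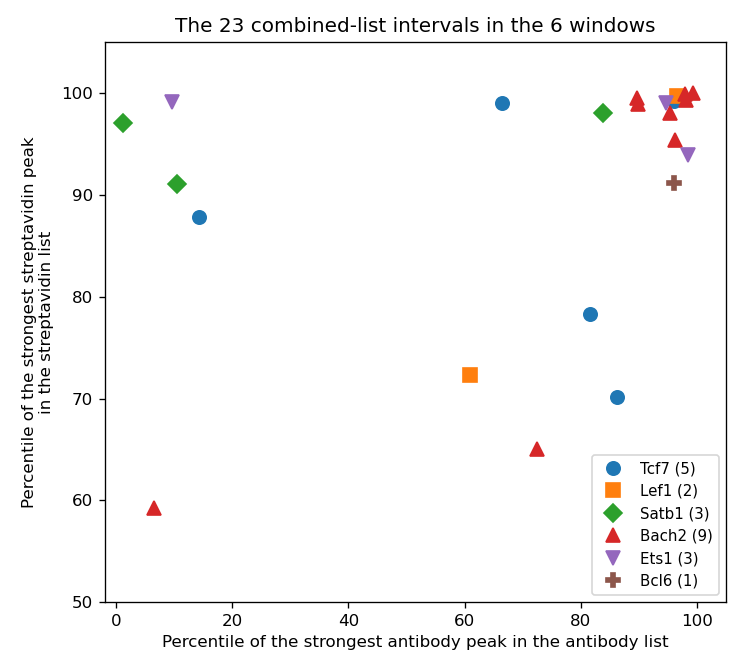
Percentile of the strongest antibody peak (x axis) and of the strongest streptavidin peak (y axis, from 50) in each of the 23 intervals of the combined list, by gene. Most Bach2 intervals sit at the upper right, while 5 intervals lie at antibody percentiles of 1.21 to 14.2, and 4 of these at streptavidin percentiles of 87.8 to 99.1.

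The density of peaks was also set beside that of the autosomes, which held 6.77 antibody peaks, 23.7 streptavidin peaks and 1.41 combined intervals per Mb. The 6 windows held 31.9 antibody peaks per Mb, 4.72 times the autosomal value, 45.1 streptavidin peaks per Mb (1.9 times) and 16 combined intervals per Mb (11.3 times). Tcf7 had the highest ratio in each list: 10.6 for antibody, 3.31 for streptavidin and 25.4 for combined intervals. The antibody ratio was 6.22 at Ets1, 4 at Bach2, 3.94 at Bcl6, 3.85 at Lef1 and 2.95 at Satb1. The streptavidin ratio ranged from 1.12 at Bcl6 to 2.2 at Lef1 outside Tcf7. These ratios belong to the windows, which differ in length and in how much of them lies outside the peaks. The antibody centres spanned 98.9 kb of 140 kb at Tcf7, 66.5 kb of 250 kb at Satb1 and 19.8 kb of 150 kb at Bcl6. How far the order of the genes depends on this was not tested.

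**Figure D4:**
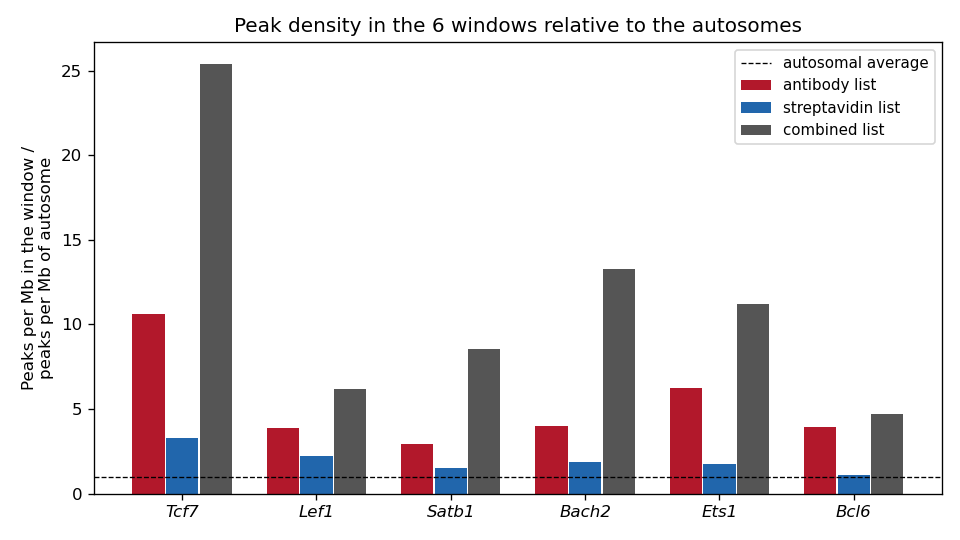
Peaks per Mb in each window divided by peaks per Mb of the autosomes, for the antibody, streptavidin and combined lists; the dashed line is the autosomal average. The bars of Tcf7 are the highest of each list, and the streptavidin bar of Bcl6, at 1.12, is closest to the line.

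Autosomal tiles of the same length as each window, laid end to end, give a further description. For Tcf7, 35 of 17175 tiles (0.204%) held at least 10 antibody peaks and 9 (0.0524%) held at least 5 combined intervals. For Bach2, 140 of 5001 tiles (2.8%) held at least 13 antibody peaks, and 3 (0.06%) held at least 9 combined intervals. For Ets1 the antibody count was reached by 1.57% of tiles, for Lef1 by 5.86%, for Bcl6 by 7.5% and for Satb1 by 10.7%. The streptavidin count was reached by 0.576% of tiles for Tcf7, 5.03% for Lef1, 7.16% for Bach2, 16.4% for Ets1, 24% for Satb1 and 46.3% for Bcl6. The count of combined intervals was reached by 1.78% of tiles for Ets1, 3.03% for Satb1, 7.65% for Lef1 and 15.2% for Bcl6. The tiles include regions without genes, whereas each window was placed at a gene. The part of that choice in the densities was not tested.

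The window edges cut through regions with further peaks. The nearest antibody peak outside the Bach2 window lay 4.05 kb beyond its end, with a score of 283, and that outside the Tcf7 window 4.82 kb beyond its end, with a score of 290. An antibody peak with a score of 562 lay 16.3 kb before the start of the Ets1 window, whose own first antibody peak, 20 kb inside, scored 146. In the antibody list the Satb1 and Bcl6 windows stood apart: their nearest outside antibody peaks were 239 and 151 kb away. In the streptavidin list they did not, with a peak 8.8 kb beyond the end of the Satb1 window and another 28 kb beyond that of Bcl6.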

How the data were processed

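The submitters' processing notes name mm9 as the build and list the tools MACS 1.4, Bowtie 0.12.7 and CASAVA 1.4; roles, settings, pooling and the control library are not given in the sources used here. The authors deposited 2 lists of peaks with a score per peak, whose file names state a false discovery rate of 0.01, and a list of positions only. No header defines the score, so scores were compared within a list only. Peaks near the authors' threshold in 1 list may be missing from it.

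Here peaks were assigned to windows by their centre, and overlap meant at least 1 shared base (Python 3.11.15, NumPy 2.4.6, SciPy 1.17.1, Matplotlib 3.10.9). Overlap counts equalled those of bedtools 2.31.1, and the counting was tested on simulated data. Percentiles count tied peaks at their mid-rank. Coordinates are 1-based mm9. The genes, windows and summaries were chosen with earlier results of these data known. Named peaks were the strongest of each list in each window, every interval of the combined list with its peaks, and the peaks beside the window edges; others were named after their values were seen. The promoter motif search was added after the files were seen, since no mm9 sequence was used.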

Additional observations from a re-analysis of the deposited data

How the results depend on the processing

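Of 100 recomputed values, 94 stayed within the 95% interval of the reported value or, for counts, within 1.5 times of it. These limits are wide, and most alternatives share most of their peaks with the main setting. The antibody median percentile fell from 60.4 to 50.4 without Bach2, near the middle of the list. It still lay within its interval (39.6 to 84.1), but that interval takes peaks as independent and itself includes the middle of the list. In the higher-scoring 50% of each list 28 antibody and 41 streptavidin peaks remained, and their median percentiles were 88 and 91.1. That choice removes every peak below the middle of its list, so a rise in the median follows by construction, but its size does not. Without the Bach2 window 14 combined intervals were left. With the streptavidin list limited to as many of its highest-scoring peaks as the antibody list holds, 75.9% of streptavidin peaks at these genes overlapped an antibody peak, against 12.7% of that shortened list. The antibody share ranged from 45.5% to 67.9% over other definitions of overlap, score limits, changed windows and each gene left out. The share of the whole antibody list also moved with the overlap definition and score limit, from 13.1% to 30%. Its lowest value came with the shortened streptavidin list, where these genes had 45.7%. Its highest came with centres within 1 kb, where these genes had 58.7%. In the higher-scoring 50% of each list it was 23.6%, against 67.9% at these genes. Joining neighbouring peaks was run for counts and densities only. The antibody density ratio ranged from 4.09 to 5.76 and the streptavidin ratio from 1.73 to 2.4 over score limits, changed windows, joined peaks and each gene left out. No paired analysis was possible because each group has 1 library, and no library could be left out. Motifs in peaks and the other naive T cell regulators were not run, since no mm9 genome or annotation was used. Read depth is unknown.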
